A study of Drosophila melanogaster with 6 samples.

Results

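The nuclear RNA polymerases I, II and III were examined through 30 subunit genes of Drosophila melanogaster, all genes whose current symbol starts with Polr1, Polr2 or Polr3 (the polymerase of mitochondria is left out). The array annotation gives 21 of the 30 a probe set of their own, among 11983 genes with such a probe set in all. Polr2D and Polr3K are each covered only by a probe set that also carries a second gene, and the other 7 have no probe set assigned to them here. Cultures of S2, a macrophage-like line that was derived from fly embryos, were treated for 2 h with 100 μM protocatechuic aldehyde (PA), a small phenolic aldehyde isolated from bamboo grass leaves, or with vehicle, and both groups were grown in Schneider's medium with insulin and fetal bovine serum. RNA from 3 PA samples and 3 vehicle samples was hybridized to 6 GeneChip Drosophila genome 2.0 arrays, to examine the effect of PA on gene expression. Whether the samples of a group were separate cultures is not given in the sources used here, so the p-values rest on a spread between arrays that may be technical only.

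RNA polymerase I makes the large ribosomal RNA precursor in the nucleolus, RNA polymerase II makes messenger RNA, and RNA polymerase III makes transfer RNA, the small 5S ribosomal RNA and other short RNAs. Each enzyme is built around a pair of large catalytic subunits and an assembly platform, with a stalk that meets the initiation factors, and some small subunits are common to all of them. The ribosomal RNAs thus come from polymerases I and III, whose activity in flies and in other animals follows growth signals.

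None of the 21 subunit genes with a probe set of their own was called higher or lower after PA at an adjusted p under 0.05 by limma, with Benjamini-Hochberg adjustment over all 18769 probe sets tested. Over those probe sets 2.29% were called higher and 2.82% lower, and in the upper 50% of mean signal, where all subunit genes lay, 4.5% and 5.59%. Fold changes of the 21 genes lay between 0.845 (Polr2M) and 1.05 (Polr3I), and no 95% interval reached beyond 0.730-fold (Polr1H) or 1.18-fold (Polr3I). The probe set that Polr3K shares with Tcs1 was the exception among the 23 probe sets of subunit genes, with a signal 1.65-fold higher in PA-treated cells. In RNA of whole cultures, a change in the number of cells of a kind and in the RNA per cell cannot be told apart.

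**Figure D1:**
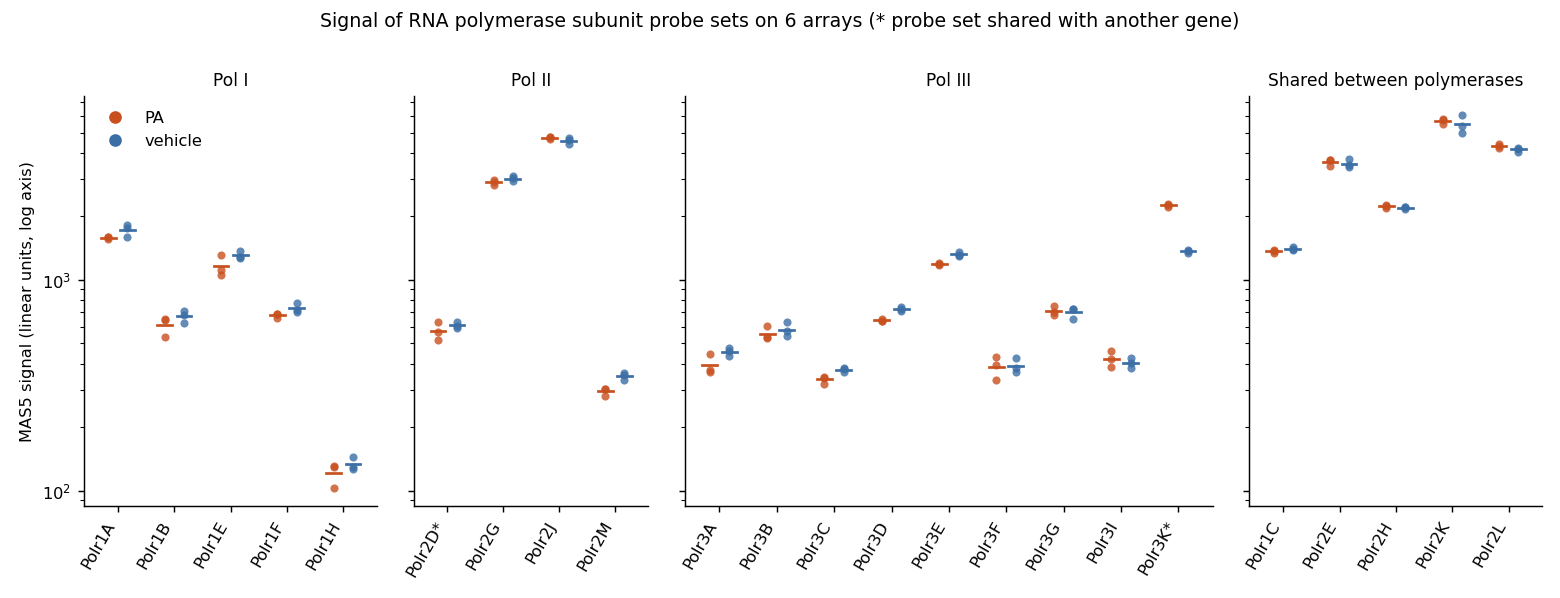
MAS5 signal (linear units on a log axis) of each subunit probe set on the 3 PA arrays (orange, left of each pair) and the 3 vehicle arrays (blue, right), grouped by polymerase, with short bars at the group means and an asterisk for a probe set shared with another gene. Polr3K* stands apart, at 2216 to 2279 on the PA arrays and 1347 to 1392 on the vehicle arrays, while the other pairs lie close together.

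The deposited values are MAS5 signals, a linear intensity for each probe set, which were taken to the log2 scale. Each array had been scaled to a mean of 500 after 2% of the values at each end were trimmed. The 75th percentile of signal was 491 to 495 on the PA arrays and 514 to 533 on the vehicle arrays. The 21 subunit genes with their own probe set lay between percentiles 63.9 (Polr1H) and 97.1 (Polr2K) of mean signal. Of 10 markers of blood cells, 9 were in the upper 50% of signal, and Hml, the hemocyte gene hemolectin, had a mean signal of 12594 with PA and 11406 with vehicle. The only such marker in the lower 50% was Sr-CI. Hml and NimC1, a phagocytosis receptor, rose (log2 changes of 0.14 and 0.15) and srp, a GATA factor of blood cells, fell by 0.15, with adjusted p from limma of 0.0427, 0.0254 and 0.0467. These calls were unstable, since Hml was called under 5 of 17 alternatives, NimC1 under 7 and srp under 6, and with 1 array left out under 1, 1 and 0 of 6. The sign of the change was kept under all 17. The summed signal of all 10 markers was 36316 to 38195 on the PA arrays and 35241 to 36883 on the vehicle arrays. Markers of other fly tissues (neuron, muscle, fat body, germline and gut) were measured for 8 genes, and 0 passed limma's test, with 0 at an unadjusted p under 0.05 by limma and 0 by the methods' t-test. Of these 8 genes 3 were in the upper 50% of signal, and their median percentile was 43.8. The brightest was elav, with a mean signal of 173 with PA and 183 with vehicle. The summed signal of these 8 genes was 355 to 369 on the PA arrays and 344 to 436 on the vehicle arrays. The part of these markers in the subunit values was not tested.

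Polr3K encodes the small polymerase III subunit that in yeast cleaves the nascent RNA and takes part in termination. Its only probe set is annotated to Polr3K and to Tcs1, which share their whole span in the RefSeq annotation, so its signal cannot be assigned to 1 of them. The signal was 2279, 2216 and 2275 on the PA arrays, against 1392, 1375 and 1347 on the vehicle arrays. The groups did not overlap, and every PA array was well above the highest vehicle array. The means were 2257 ± 35.1 with PA and 1371 ± 22.9 with vehicle (SD, n = 3 each). The log2 difference came to 0.72, with a standard error of 0.04 and an adjusted p of 1.25e-07 by limma (3.08e-08 to 0.115 over 17 alternatives). The largest of these adjusted p-values came from limma without a trend of the variance, the only alternative under which the call was lost. An exact permutation test gave p = 0.1, the smallest that 3 arrays against 3 allow (2-sided). By size of change this probe set ranked 29 among the 429 that were called higher. The study selected genes of this probe set on the same arrays, so the rise is not independent evidence of its direction.

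Polr2D, the subunit that forms the polymerase II stalk together with Polr2G, is in the same position. Its probe set is shared with Ada2a, an adaptor of histone acetyltransferase complexes whose gene has the same span. The signal was 518, 628 and 568 on the PA arrays and 631, 588 and 605 on the vehicle arrays. The groups overlapped, with a log2 change of -0.09 (adjusted p = 0.604 from limma). A probe set of Ada2a alone was dim, with a mean of 45.5 ± 6.56 with PA and 51.7 ± 17.3 with vehicle (SD, n = 3 each), and its groups overlapped as well (adjusted p = 0.905 from limma).

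The 5 subunits found only in polymerase I all had a log2 change below 0, from -0.18 (Polr1E) to -0.11 (Polr1F), and none passed the test. Their median was -0.14, beside -0.01 over all tested probe sets and -0.03 over the upper 50% of signal. All 5 stayed below 0 with the arrays centred on their median or 75th percentile and after quantile or cyclic loess normalization. After the last 2 the class median was -0.07 and -0.08.

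Polr1A, the largest subunit and with Polr1B the catalytic core, had signals of 1591, 1562 and 1597 on the PA arrays, against 1822, 1602 and 1755 on the vehicle arrays. The PA arrays lay below all vehicle arrays, the nearest by a small margin. Its mean was 1583 ± 18.8 with PA and 1726 ± 113 with vehicle (SD, n = 3 each), a log2 difference of -0.12 with a standard error of 0.05 (adjusted p = 0.204 by limma). Polr1B, the next largest subunit, had signals of 647, 536 and 654 on the PA arrays, against 621, 681 and 714 on the vehicle arrays. The groups overlapped, and PA replicate 2 was the lowest of the 6 (log2 change -0.14, standard error 0.08, adjusted p = 0.435 from limma).
Polr1E corresponds to a subunit that in yeast aids elongation. It had signals of 1119, 1059 and 1309 on the PA arrays, against 1269, 1284 and 1370 on the vehicle arrays. PA replicates 1 and 2 were below all vehicle arrays and PA replicate 3 was among them. Its adjusted p from limma was 0.183, and 0.0307 without PA replicate 3. Polr1F, the stalk subunit that in yeast contacts the polymerase I initiation factor, did not overlap between groups, at 658 to 691 on the PA arrays and 702 to 774 on the vehicle arrays. Polr1H, a small subunit with a role in RNA cleavage in yeast, was the dimmest of the 23 probe sets and had the widest 95% interval, from -0.45 to 0.17 on the log2 scale. PA replicate 2 had the lowest signal of the 6 arrays for 4 of the 5 genes, and without it the class median was -0.11.

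**Figure D2:**
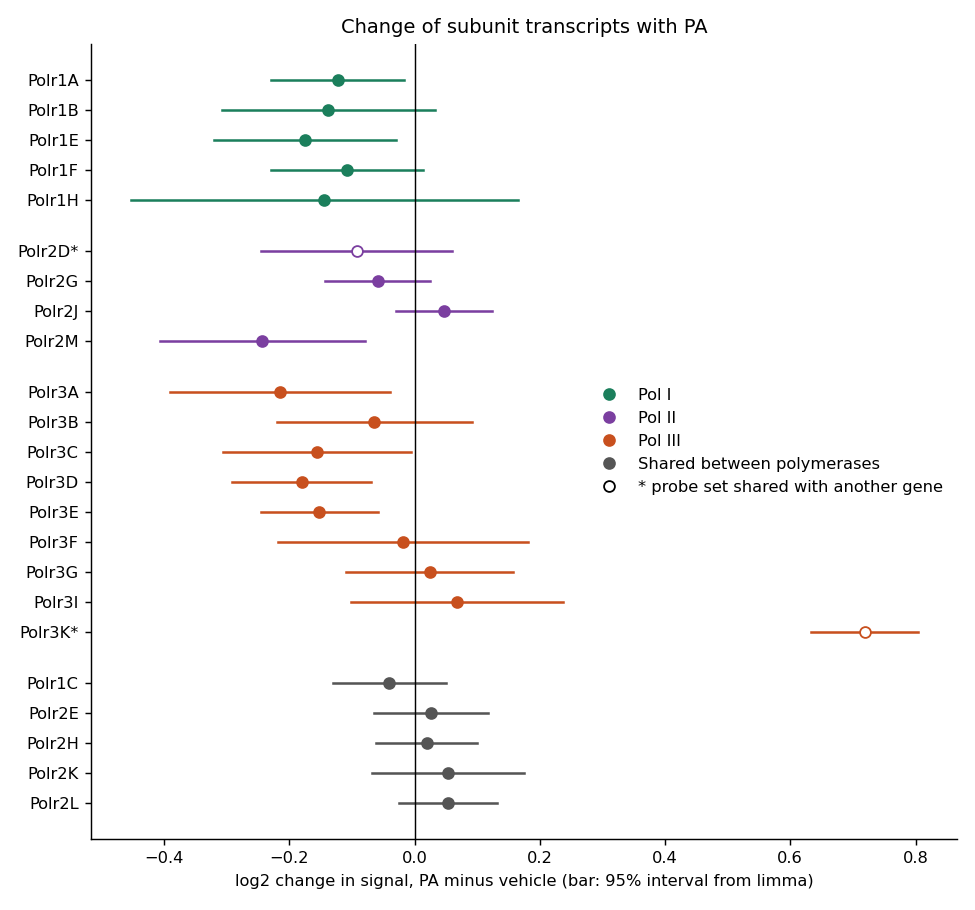
Log2 change in signal, PA minus vehicle (points), with 95% intervals from limma (bars), for the 23 subunit probe sets by polymerase; open points with an asterisk are probe sets shared with another gene. The 5 polymerase I genes lie left of 0, the 5 subunits shared between polymerases lie at -0.04 to 0.05, and Polr3K* alone lies far to the right at 0.72.

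The 8 measured subunits particular to polymerase III varied among themselves, and none passed the test. Log2 changes were below 0 for 6 of the 8 and ran from -0.22 (Polr3A) to 0.07 (Polr3I), with a median of -0.11. After quantile normalization and after cyclic loess 4 of the 8 were below 0, as with the 75th percentile as the centre, and with each array centred on its median all 8 were. The class median was -0.03 after quantile normalization.
Polr3A, the largest subunit, had signals of 374, 364 and 445 on the PA arrays, against 459, 474 and 436 on the vehicle arrays. PA replicate 3 was above the lowest vehicle array, so the groups overlapped (log2 change -0.22, standard error 0.08, adjusted p = 0.171 from limma). Polr3B, its catalytic partner, had signals of 604, 527 and 536 on the PA arrays, against 542, 573 and 628 on the vehicle arrays. The order of the arrays was mixed, with a log2 change of -0.06, which turned to 0.01 after quantile normalization, 0.0045 after cyclic loess and 0.02 with centring on the 75th percentile.

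Polr3D and Polr3E form a heterodimer that in yeast takes part in promoter opening and termination, and they came closest to the threshold of all 21 genes. For Polr3D the signals were 650, 636 and 640 on the PA arrays, against 747, 711 and 725 on the vehicle arrays. The groups were well apart, with a log2 difference of -0.18 and a standard error of 0.05 (adjusted p = 0.0658 by limma). For Polr3E the signals were 1172, 1200 and 1191 on the PA arrays, against 1308, 1359 and 1293 on the vehicle arrays. These too did not overlap, with a log2 difference of -0.15 and a standard error of 0.04 (adjusted p = 0.0648 by limma). When only the upper 50% of probe sets by mean signal was tested, both were called lower by limma, at adjusted p = 0.0401 for Polr3D and 0.0365 for Polr3E. With that filter 729 of the 9384 probe sets were called lower and 582 higher. After quantile normalization the smallest adjusted p among all 21 genes was 0.288.
Of the trimer that in yeast and human meets the initiation factors, Polr3C did not overlap between groups, at 322 to 345 on the PA arrays and 367 to 381 on the vehicle arrays, with a log2 change of -0.16 (adjusted p = 0.268 from limma). Its partners Polr3F and Polr3G overlapped between groups, with log2 changes of -0.02 and 0.02. Polr3I, a stalk subunit, was at 384 to 462 on the PA arrays and 383 to 424 on the vehicle arrays.

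Only 3 polymerase II subunits have a probe set of their own, and the largest catalytic subunits are not among them. Polr2G, the other stalk subunit, and Polr2J, the assembly partner of Polr2C, overlapped between groups and had log2 changes of -0.06 and 0.05. Their 95% intervals ran from -0.14 to 0.02 for Polr2G and from -0.03 to 0.12 for Polr2J, so that a change of 1.2-fold lay outside both. Polr2M, which in human cells binds polymerase II and hinders an initiation factor, had the lowest log2 change of the 21 genes. Its signals were 280, 303 and 304 on the PA arrays, against 334, 355 and 363 on the vehicle arrays. The groups were well apart, with a log2 difference of -0.24 and a standard error of 0.08 (adjusted p = 0.0917 by limma, and 0.0576 to 0.453 over 17 alternatives).

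None of the 5 measured subunits that more than 1 polymerase uses passed the test, and their median log2 change was 0.03, or 0.11 with the 75th percentile as the centre. Polr1C, part of the assembly platform of polymerases I and III, had a log2 change of -0.04, which turned to 0.04 with centring on the 75th percentile and to 0.0098 after quantile normalization. Polr2E, Polr2H, Polr2K and Polr2L, which are common to all the nuclear polymerases, had log2 changes of 0.03, 0.02, 0.05 and 0.05. All of these overlapped between groups, and with each array centred on its median all 4 turned to values below 0. The 95% intervals of the 5 genes lay between 0.914-fold (Polr1C) and 1.13-fold (Polr2K). The signals of Polr2K, 5724, 5461 and 5818 on the PA arrays and 4995, 5387 and 6055 on the vehicle arrays, were the most scattered of the 5. For Polr2H, at 2200 to 2261 on the PA arrays and 2168 to 2222 on the vehicle arrays, the spread was small in both groups.

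Taking the 21 genes together, 14 had a log2 change below 0, against 51.9% of all tested probe sets and 57.9% of the upper 50% by signal. The number below 0 was 13 after quantile normalization, 12 after cyclic loess, 10 with centring on the 75th percentile and 21 with centring on the median. The median is a dim point, with a signal of 20.7 to 24.8 over the arrays, below that of each of the 21 genes. Near it the replicate SD (log2) had a median of 0.89 in decile 5 of mean signal and 0.42 in decile 6. The PA arrays lay below all vehicle arrays for 6 genes (28.6%), Polr1A, Polr1F, Polr2M, Polr3C, Polr3D and Polr3E, and above all of them for none. Over all tested probe sets the corresponding shares were 11.9% and 9.61% (21.5% in either direction), and over the upper 50% by signal 19.9% and 13.1% (33.0% in either direction). An unadjusted p under 0.05 by limma was found for 7 of the 21 genes, all with a log2 change below 0, beside 9.93% of all tested probe sets lower and 7.1% higher. The share at this p was not counted over the upper 50% by signal, where all 21 genes lay, so the 7 have no share at like signal beside them. By the methods' test 4 of the 21 had an unadjusted p under 0.05, and the share of all tested probe sets at this p alone was not counted. With the study's limits of 1.5-fold or 0.67-fold required as well, 0 of the 21 passed, beside 1.89% of all tested probe sets higher and 1.23% lower.

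The changes of the subunit genes varied with their brightness, as those of other probe sets did. Among the 10 subunit genes in decile 8 of mean signal the median log2 change was -0.12, where that of all probe sets was -0.08. For the 6 genes in decile 10, the brightest, all of them subunits of polymerase II or shared ones, it was 0.04, where that of all probe sets was 0.05. The replicate SD had a median of 0.09 (log2) in decile 8 and 0.04 in decile 10. All 5 polymerase I genes were below the median of their own decile, as were 4 of 8 polymerase III genes, 3 of 3 polymerase II genes and 2 of 5 shared ones. The median distance was -0.06 for polymerase I, -0.11 for polymerase II (where Polr2J lay on the median of its decile), -0.03 for polymerase III and 0.0054 for the shared subunits. The part of this dependence on signal in the subunit values was not tested beyond the normalizations given.

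**Figure D3:**
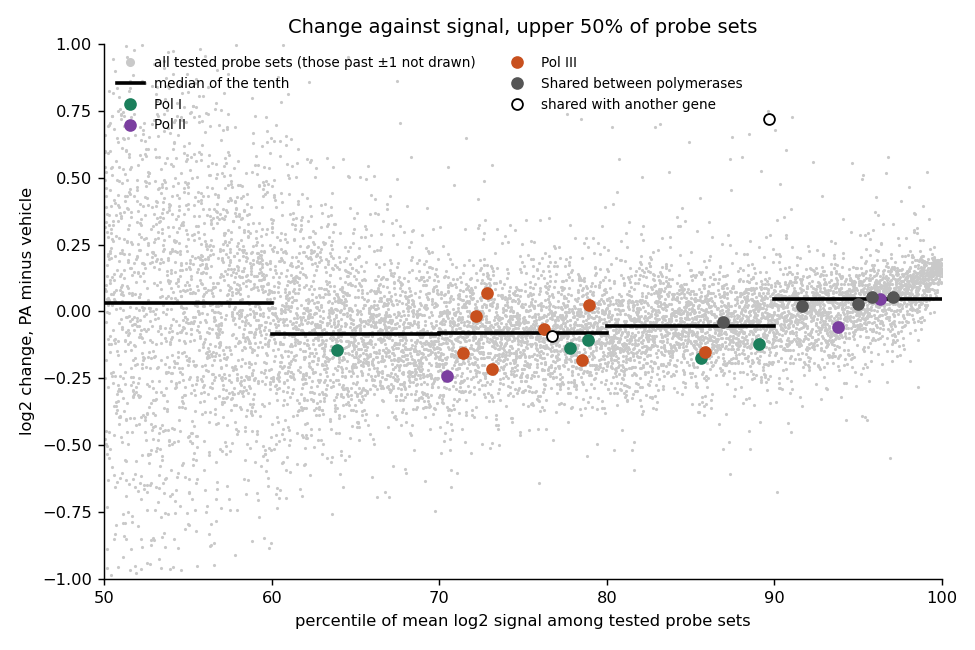
Log2 change, PA minus vehicle, against the percentile of mean log2 signal for the upper 50% of tested probe sets (grey; 112 past a log2 change of 1 in either direction are not drawn), with the median of each decile (black lines) and the subunit genes (coloured; open, shared with another gene). Subunits between the 70th and 90th percentiles lie mostly below 0, where the medians of all probe sets are -0.08 and -0.05. Those above the 90th lie near the median of 0.05, except Polr2G at -0.06.

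**Figure D4:**
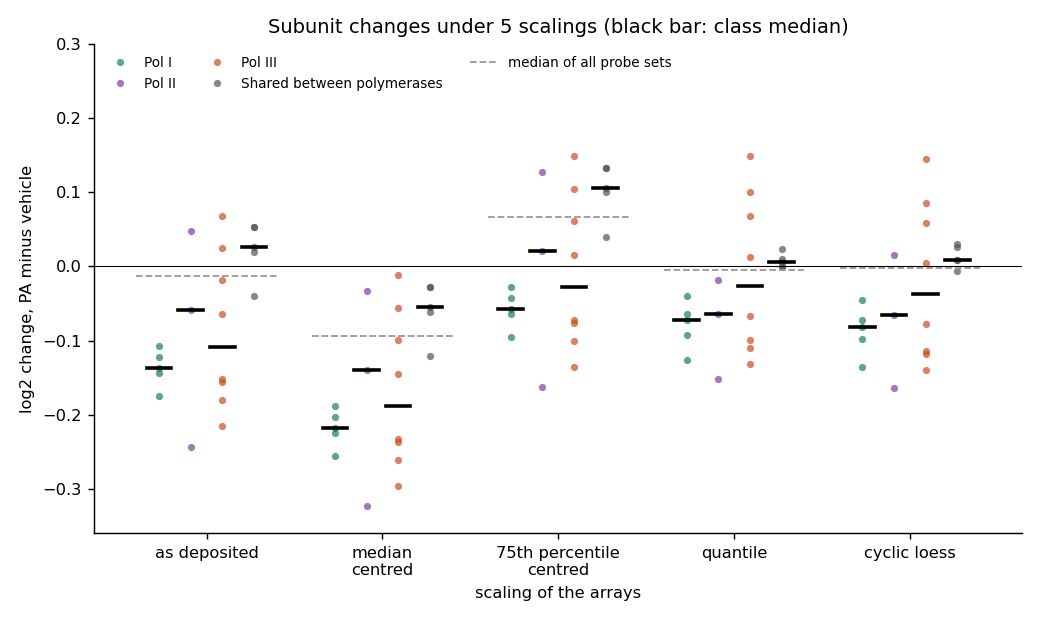
Log2 change, PA minus vehicle, of the 21 subunit genes (points, by polymerase) under 5 scalings of the arrays, with class medians (black bars) and the median of all probe sets (dashed). Polymerase I genes are below 0 under all 5, while the median of polymerase II changes sign with the 75th percentile as the centre and that of the shared subunits with the median as the centre.

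Of 97 measured genes that act with the polymerases, in 6 lists, 1 rose and 7 fell, together 8.25%. All 97 were in the upper 50% of signal, where 4.5% of probe sets were called higher and 5.59% lower (5.1% in either direction over all tested probe sets), so the share called among these factors was not above that of probe sets of such signal. The list of polymerase I initiation and nucleolar factors had the lowest median, -0.13, with 2 of 13 measured genes lower and 11 not passing. One of them was TAF1B, a component of the polymerase I promoter factor, with signals of 220, 266 and 257 on the PA arrays, against 322, 340 and 343 on the vehicle arrays. It fell by 0.44 (standard error 0.09, adjusted p = 0.0123 from limma). The other was Tif-IA, which joins polymerase I to that factor, at 2932, 2900 and 2950 on the PA arrays, against 3394, 3244 and 3460 on the vehicle arrays. It fell by 0.20 (standard error 0.04, adjusted p = 0.00749 from limma). Groups did not overlap for either gene. The call of TAF1B was lost after quantile and cyclic loess normalization and without a trend of the variance. That of Tif-IA was lost without a trend and with either centring of the arrays.

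Among 8 measured polymerase III factors Trf fell, a TBP-related factor that in flies serves polymerase III, and 7 did not pass (list median -0.09). The log2 change of Trf was -0.20 (adjusted p = 0.0386 from limma, and lost when any 1 array was left out). Maf1, the repressor of polymerase III, had a log2 change of -0.02, and Brf and Bdp1, parts of its initiation factor, had -0.05 and 0.13. Trf also stands in the list of 30 measured general initiation factors of polymerase II, where it was the only gene called and the median was -0.03.
Of 26 measured Mediator subunits, which link regulators to polymerase II, MED14 fell and 25 did not pass by their brightest probe set (list median -0.04). Among the 25 was skd, a subunit of the Mediator kinase module, whose brighter probe set had a log2 change of -0.19 (adjusted p = 0.0688 from limma) and whose other probe set was called lower (-0.34, adjusted p = 0.0287). MED14, the scaffold of that complex, had signals of 841, 817 and 837 on the PA arrays, against 1087, 1025 and 991 on the vehicle arrays, with a log2 change of -0.31 (adjusted p = 0.00307 from limma). MED9, another Mediator subunit, has no probe set of its own and is not among the 26. The probe set that it shares with CG42518 was called higher (0.21, adjusted p = 0.0139 from limma). That signal cannot be assigned to 1 of these genes. Of 19 measured pausing and elongation factors 3 fell, 1 rose and 15 did not pass (list median -0.11). The kinase gene Cdk12, whose product phosphorylates the tail of the largest polymerase II subunit, fell by 0.29 and Rtf1, of the Paf1 complex, by 0.34 (adjusted p = 0.0064 and 0.0268 from limma). Su(Tpl), the fly ELL elongation factor, rose by 0.16 (adjusted p = 0.0484). The phosphatase gene Fcp1 fell by 0.23 (adjusted p = 0.0421 from limma). The calls of MED14 and Cdk12 were lost only without a trend of the variance, while those of Rtf1, Su(Tpl), Fcp1 and Trf were lost under 10 to 13 of the 17 alternatives. Of the Myc network, Myc itself has no probe set of its own and was not measured. Max and Mnt were measured and 0 of these 2 were called by limma, with 0 at an unadjusted p under 0.05 by limma and 0 by the methods' t-test.

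**Figure D5:**
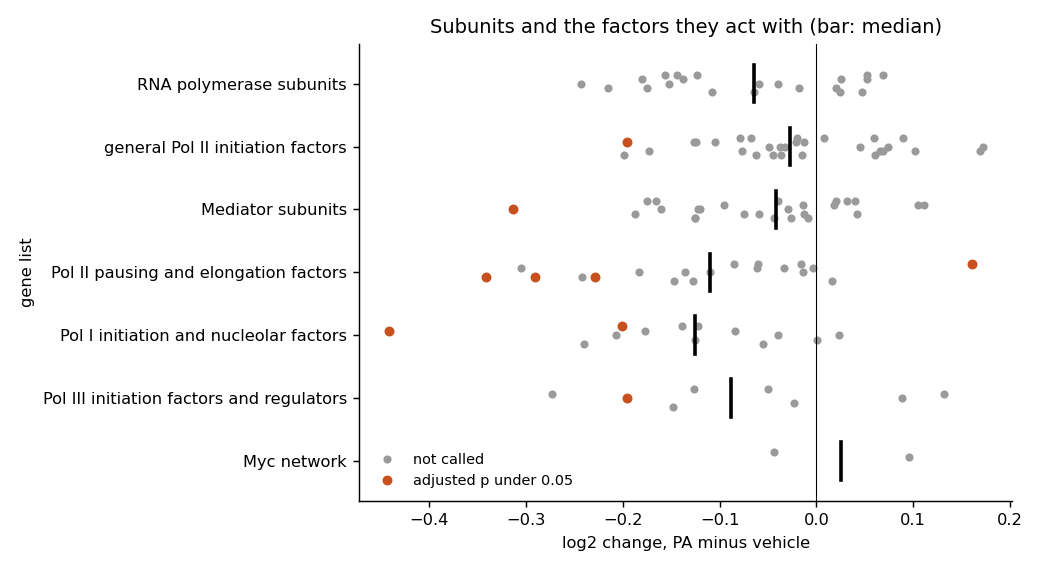
Log2 change, PA minus vehicle, of the 21 subunit genes (top) and of the measured genes of 6 lists of factors that act with them, 1 point per gene, with the list median (black bar) and genes at an adjusted p under 0.05 by limma in orange. None of the 21 subunits drawn is called, and the called factors lie between -0.44 (TAF1B) and -0.20 (Trf), except Su(Tpl) at 0.16.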

How the data were processed

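RNA from 3 PA and 3 vehicle samples of S2 cells was hybridized by the authors to 1 array each. The authors deposited intensity values on a linear scale, namely MAS5 signals (version not given in the sources used here), which were taken as they stand. No raw probe data were used here. Of 18952 probe sets, 183 controls were left out. Groups were compared with limma 3.58.1 under R 4.3.3 (lmFit, eBayes with a trend) on log2 signals of 18769 probe sets, with no offset and no filter, PA minus vehicle, with Benjamini-Hochberg adjustment; every adjusted p comes from it. Symbols came from the platform annotation, updated by gene identifier for 13544 of 13647 probe sets with 1 gene. Each measured subunit gene has 1 probe set, and a factor with several was represented by the brightest. Every subunit gene with a probe set is named, with full values by rule for A and B subunits and called probe sets; other full values were added after they were seen. Named called factors are up to 3 genes of a list with the smallest p, and Su(Tpl) was added to complete its list. Outside that rule Maf1, Brf, Bdp1, skd, Max and Mnt are also named, which were not called by their brightest probe set. MED9 is named for a called probe set that it shares with another gene. The members and lists were chosen with earlier results of these data known. Alternatives were 4 scalings, offsets of 16 and 64, a filter, 3 variance or weight settings, the replicate block, each array left out and the methods' t-test (on log2 signals, 2-sided, unadjusted, with limits of 1.5-fold and 0.67-fold). The fit was tested on simulated data. Permutation tests ran in Python 3.11.15. Promoter motifs and sequences were not analysed here.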

Additional observations from a re-analysis of the deposited data

How the results depend on the processing

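The number of arrays, 3 per group, limits the precision, and the 95% intervals of the 21 subunit genes still allow changes down to 0.730-fold (Polr1H) and up to 1.18-fold (Polr3I). Class medians of about 0.1 on the log2 scale move with the scaling of the arrays. Centring on the median lowers every gene by 0.081 and centring on the 75th percentile raises every gene by 0.080 (log2). The cause of the changes below was not tested.

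None of the 21 subunit genes with a probe set of their own was called higher under any of the settings run. The number of the 21 called lower was 2 in the upper 50% of signal (Polr3D and Polr3E). With 1 array left out it was 0 to 1 (Polr1E without PA replicate 3). The probe set that Polr3K shares with Tcs1 was called higher under 16 of 17 alternatives. Among the 9384 probe sets in the upper 50% of signal, 582 were called higher and 729 lower. Over all probe sets, 58 higher and 350 lower were called with centring on the median, 988 and 211 with the 75th percentile, 238 and 266 after quantile normalization, 248 and 269 after cyclic loess, 225 and 314 with an offset of 64, 7 and 0 without a trend, and 14 and 0 by the methods' t-test after Benjamini-Hochberg. An offset of 16 gave 270 higher, and the methods' t-test, unadjusted but past the fold limits, gave 231 lower. Leaving out 1 array gave 196 to 402 higher and 262 to 412 lower. The median log2 change of Pol II was -0.14 with centring on the median and 0.021 with the 75th percentile, and that of shared subunits -0.055 and 0.11. For Pol III it was -0.19 and -0.028 with these, -0.027 after quantile normalization, -0.037 after cyclic loess, -0.095 with an offset of 64 and -0.14 to -0.086 with 1 array left out. With 1 array left out it was -0.19 to -0.11 for Pol I, -0.08 to -0.04 for Pol II and 0.0081 to 0.06 for shared subunits. Averaging the probe sets of a gene changed nothing, since each subunit gene has 1.

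Several changes near 0 turned sign, all of them uncalled. With centring on the median they were Polr2E (-0.055), Polr2H (-0.061), Polr2J (-0.033), Polr2K (-0.028), Polr2L (-0.028), Polr3G (-0.056) and Polr3I (-0.012). With the 75th percentile they were Polr1C (0.040), Polr2G (0.021), Polr3B (0.016) and Polr3F (0.062). After quantile normalization they were Polr1C (0.0098), Polr2J (-0.018), Polr2L (-0.00064), Polr3B (0.012) and Polr3F (0.068), and after cyclic loess Polr3B (0.0045) and Polr3F (0.059). With 1 array left out, Polr2E ranged from -0.0020 (without vehicle replicate 2) to 0.061, Polr2K from -0.012 (without vehicle replicate 1) to 0.13, Polr3F from -0.098 to 0.080 (above 0 without PA replicate 2 or vehicle replicate 3) and Polr3G from -0.028 to 0.055 (below 0 without PA replicate 3 or vehicle replicate 3).

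The labels number the samples 1 to 3 in both groups. Across probe sets, the deviations of same-numbered arrays from their group means correlated at -0.0012, 0.019 and -0.0016, so the numbers were not used to pair them. With the replicate block 386 probe sets were called higher and 557 lower, and 0 of the 21 subunit genes with their own probe set were called. The medians with this block were -0.14, -0.06, -0.11 and 0.03 for Pol I, Pol II, Pol III and shared subunits.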

Other observations

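PolrMT, the single-subunit polymerase of mitochondria, was left out of the 30 genes. Its signal was 301, 300 and 286 on the PA arrays and 341, 320 and 330 on the vehicle arrays, without overlap between the groups. The log2 difference of -0.16 (standard error 0.07) did not pass the test, with an adjusted p of 0.292 by limma.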
